A study of Mus musculus with 9 samples.

Results

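The miR-34 and miR-449 family was followed in extracellular vesicles (EVs) of bronchoalveolar lavage fluid (BALF). Its entries were chosen by name alone: every row of the table for the 6 hairpins mir-34a, mir-34b, mir-34c, mir-449a, mir-449b and mir-449c, on both arms, with the isomiRs whose 5′ end is shifted. The table held 30 such entries of 1308 in all, and 11 of these 30 were among the 461 entries with a mean above 50 RPMMM, the deposited normalised miRNA read count with a common total per pool, that were tested. C57BL/6J mice of 8 to 10 weeks, female by the study's methods, breathed filtered air (FA), 1 ppm O3 or 2 ppm O3 for 3 h in a whole-body chamber. They were lavaged 21 h later. Cells were spun out of the lavage before EV RNA was isolated, and small RNA was sequenced in 3 pools per exposure. An FA pool held BALF of 4 mice and an O3 pool BALF of 3 mice, so pool size and exposure cannot be told apart.

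MicroRNAs (miRNAs) are short RNAs that guide silencing proteins to matching messenger RNAs, and they recognise their targets mainly through the seed, the bases near their 5′ end. The miR-34b/c and miR-449 hairpins are highly expressed in multiciliated cells, which carry the motile cilia that move mucus along the conducting airways, and they promote the formation of these cilia together. miR-34a has the same seed, is expressed in many cell types and is a direct transcriptional target of the tumour suppressor p53. The defining markers of ciliated cells are messenger RNAs, which were not measured in these libraries, so the link to ciliated cells could not be checked here and the entries are called by their names.

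The mature sequences are shown because the seed joins hairpins from 3 chromosomes and separates their arms. They are given as in RefSeq (GRCm38.p6), 5′ to 3′, with the seed, bases 2 to 8, in capitals. Of the 1738 mature mouse miRNAs in that table, 4 have the seed GGCAGUG, and they are the 5p arms listed here. miR-34c-5p has no mature entry there, so it could not be counted among them.
miR-34a-5p: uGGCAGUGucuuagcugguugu
miR-34b-5p: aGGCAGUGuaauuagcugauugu
miR-449a-5p: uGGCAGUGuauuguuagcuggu
miR-449c-5p: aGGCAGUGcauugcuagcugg

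The 3p arms of mir-34b and mir-34c share another seed, AUCACUA, which no other mature miRNA of the table carries. Their sequences are the same at 17 of 22 positions. The 3p arm of mir-449a has a seed of its own.
miR-34b-3p: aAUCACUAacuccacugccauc
miR-34c-3p: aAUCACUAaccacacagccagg
miR-449a-3p: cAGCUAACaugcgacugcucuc

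The hairpin of mir-34c holds the letters GGCAGUG at 1 place, marked here in capitals, and for miR-34c-5p the seed is read from the hairpin alone.
Mir34c: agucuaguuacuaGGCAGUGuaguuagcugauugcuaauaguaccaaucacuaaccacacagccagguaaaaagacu

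In mm9, the build of the deposited files, Mir34a lies on the plus strand at chr4:149442563-149442664, outside annotated genes. Mir34b (chr9:50911667-50911750) and Mir34c (chr9:50911139-50911215) lie on the minus strand with 451 bases between them, also outside annotated genes. The nearest coding gene, 4833427G06Rik, starts or ends 956 bases from Mir34c. Mir449c (chr13:113826191-113826299), Mir449b (chr13:113827627-113827706) and Mir449a (chr13:113827742-113827832) lie on the plus strand within 1642 bases, in an intron of Cdc20b and outside its exons. Members of 1 cluster may come from 1 transcript, and their values are not independent of each other.

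Of the 30 entries, mir-34a had 4, mir-34b 10, mir-34c 11, mir-449a 3 and mir-449c 2, and mir-449b had none. There were 8 mature entries and 22 isomiRs. The 19 entries that were not tested, 17 isomiRs with miR-34b-5p and miR-449c-5p, had means up to 45.6 RPMMM. They were listed above 0 in 25 of 57 places in FA, in 21 after 1 ppm O3 and in 7 after 2 ppm O3, and 5 of them were seen in 1 pool only. The lowest value listed in a pool was between 13.6 and 18.9 RPMMM in FA and between 11.8 and 18.9 RPMMM after 1 ppm O3. After 2 ppm O3 it was between 34.3 and 37.3 RPMMM. The estimate of depth assumed that this lowest value is about 10 reads. All read counts given here rest on that assumption. An estimated 281542 to 300920 miRNA reads lay behind each 2 ppm O3 pool, against 535533 to 773259 in FA and 555112 to 860956 after 1 ppm O3, so a low entry can be listed at 0 after 2 ppm O3 at a level that was listed in the other exposures.

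RPMMM are shares of a fixed total, so that a rise of one miRNA lowers the others. miR-2137 alone held 0.0784% to 0.641% of miRNA reads in FA, 3.23% to 5.40% after 1 ppm O3 and 18.7% to 20.3% after 2 ppm O3. The hairpins mir-5115, mir-5109, mir-5105 and mir-5102, which had no gene in the RefSeq table, together held 0.279% to 0.405%, 2.27% to 5.54% and 22.9% to 27.3%. The median log2 fold change of the 461 entries was -0.08 after 1 ppm O3 vs FA, -0.83 after 2 ppm O3 vs FA and -0.69 for 2 ppm O3 vs 1 ppm O3. Fold changes are therefore also given relative to this median, and other scalings are named where they alter a direction or a call. In these pools, fewer vesicles from a cell type and less of a miRNA per vesicle or cell cannot be told apart.

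The family as a whole was lowest after 1 ppm O3. Its summed level was 11452, 13506 and 17036 RPMMM in the FA pools, 6306, 10853 and 6245 RPMMM after 1 ppm O3, and 13928, 11947 and 12238 RPMMM after 2 ppm O3. The means were 13998 ± 2825 RPMMM (SD, n = 3 pools), 7802 ± 2643 RPMMM and 12704 ± 1070 RPMMM, or 1.40%, 0.780% and 1.27% of miRNA reads. All 1 ppm O3 pools lay below all FA and all 2 ppm O3 pools, while FA and 2 ppm O3 pools overlapped. The log2 ratio of the mean sums was -0.84 for 1 ppm O3 vs FA and -0.14 for 2 ppm O3 vs FA. The second of these was 0.17 when miR-2137 was left out of the total, 0.73 when the 4 hairpins named above were left out too, and 0.57 with median-of-ratios scaling.

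**Figure D1:**
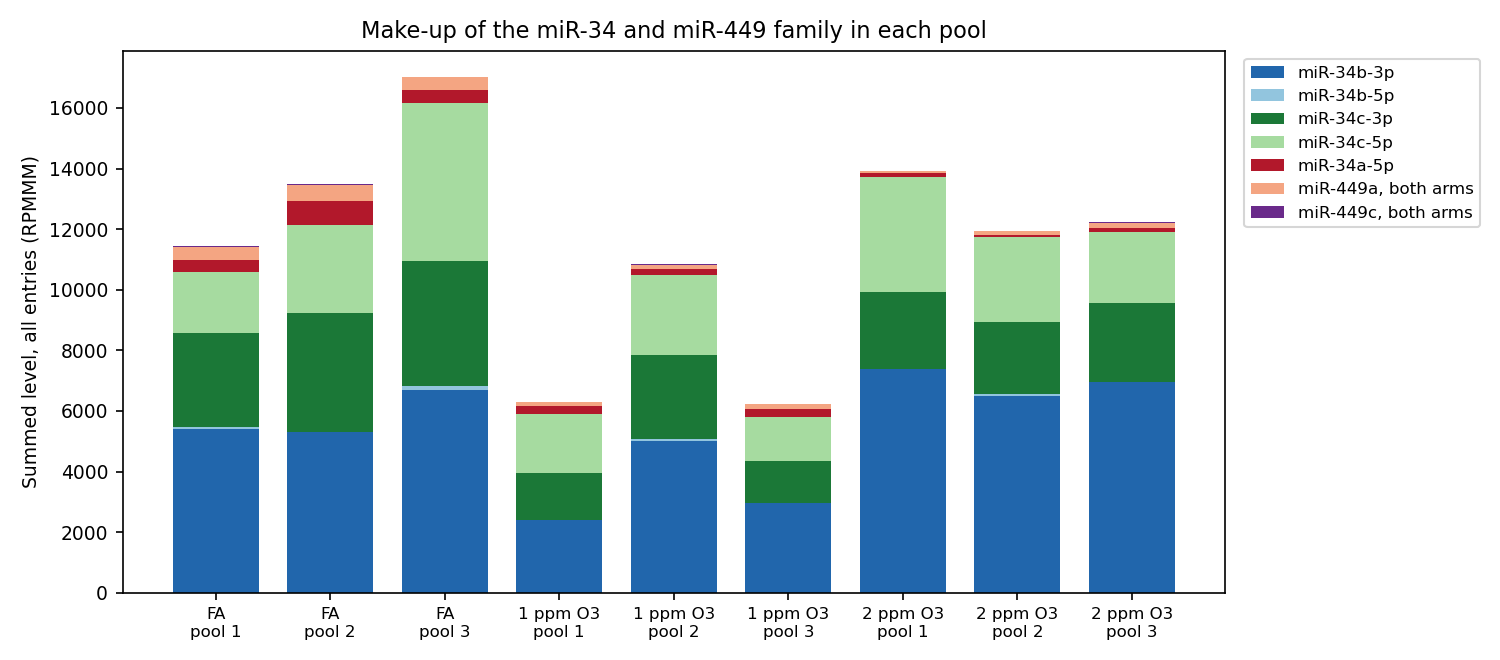
Summed RPMMM of all entries of the family in each of the 9 pools (bars), divided by hairpin and arm with isomiRs included. miR-34b-3p, miR-34c-3p and miR-34c-5p fill most of every bar, and the 1 ppm O3 bars, at 6245 to 10853 RPMMM, are lower than all others.

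The hairpins mir-34b and mir-34c made up nearly all of the signal. Together they held 89.8% to 94.9% of the family's RPMMM in FA, 92.7% to 96.7% after 1 ppm O3 and 97.3% to 98.4% after 2 ppm O3. The share of mir-34b was 42.4%, 44.0% and 54.9% on average, and that of mir-34c 49.9%, 50.3% and 43.1%. mir-34a held 4.01%, 3.36% and 0.987%, and mir-449a 3.33%, 2.07% and 0.933%. Among the mature 5p entries, miR-34c-5p held 73.7% to 86.6% in FA, 76.0% to 87.1% after 1 ppm O3 and 89.1% to 94.3% after 2 ppm O3. By mean level in FA, miR-34b-3p ranked 38 and miR-34c-3p 50 of 1308 entries.

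After 1 ppm O3, all 11 tested entries of the family had a log2 fold change below 0 vs FA, with a median of -0.99 against -0.08 for all entries tested. One was called differentially expressed (DE; limma adjusted p under 0.05 over the 461 entries and a fold change of at least 2), miR-34c-3p, which fell. In this comparison 13.2% of all entries tested were DE, 10.4% higher and 2.82% lower. After 2 ppm O3 vs FA, 5 entries had a log2 fold change above 0 and 6 below, with a median of -0.07 against -0.83. Of these, 2 were DE, both lower: miR-34a-5p, and miR-449a-3p, which passed the filter only through its FA level. Of all entries tested, 43.6% were DE, 14.3% higher and 29.3% lower. The split of the family's DE entries turned with the scaling. It was 1 higher and 1 lower with median-of-ratios and 1 higher and 2 lower without miR-2137. Without miR-2137 and the 4 hairpins it was 2 higher and 1 lower. Between the concentrations, 8 of 11 entries had a higher mean after 2 ppm O3 than after 1 ppm O3, with a median log2 fold change of 0.64 against -0.69. Here 3 entries were DE, all higher: miR-34b-3p and the +1 isomiRs of miR-34b-3p and miR-34c-3p. Of all entries tested, 33.6% were DE, 11.3% higher and 22.3% lower. The comparisons share pools and are not independent of each other.

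**Figure D2:**
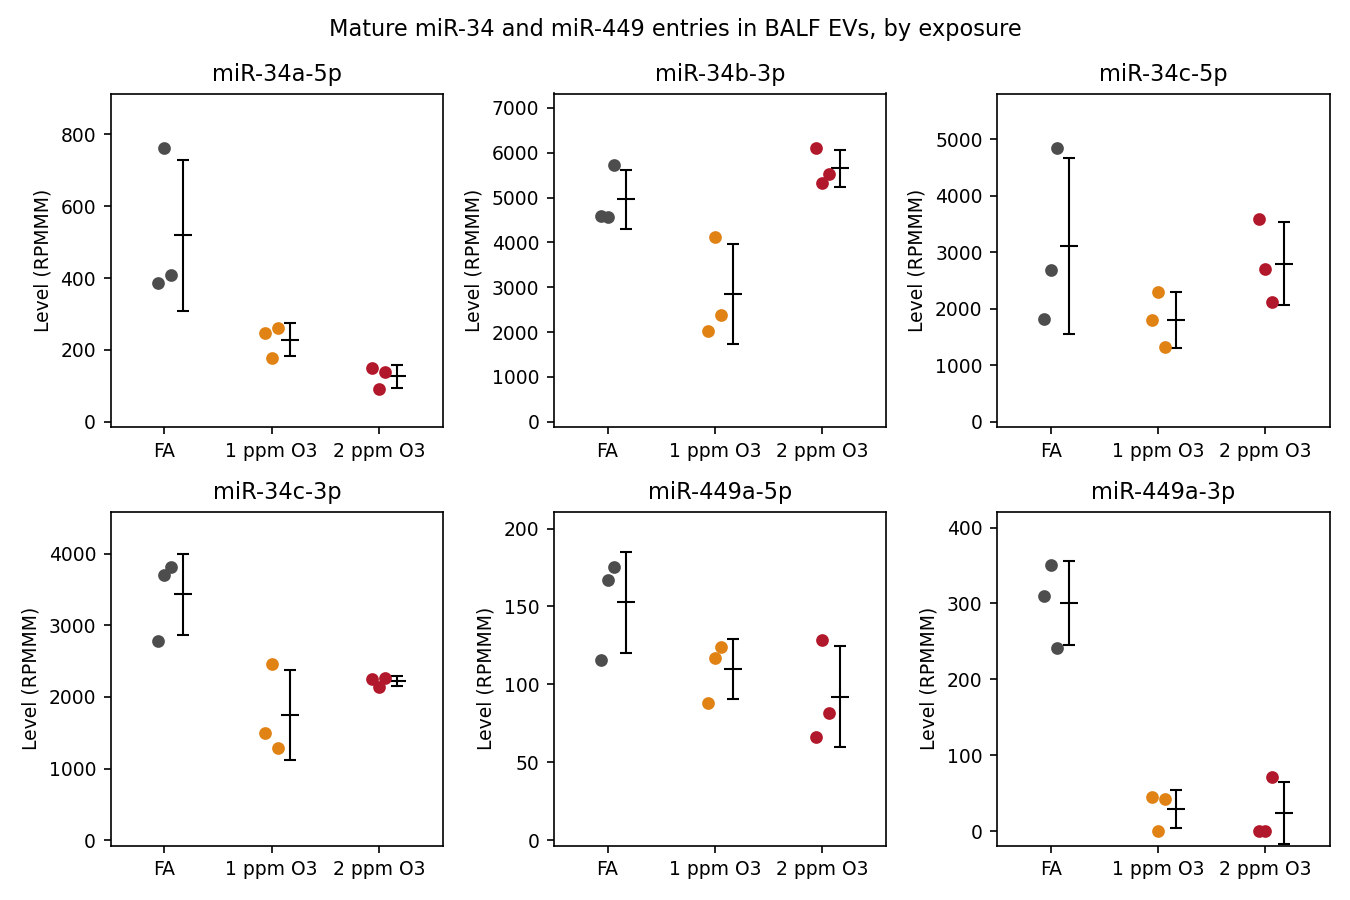
RPMMM (linear axes) of 6 mature family entries in each pool (points), with the mean and SD of the 3 pools per exposure (black bars). miR-34a-5p steps down from FA (386 to 762 RPMMM) to 1 ppm O3 (177 to 261 RPMMM) and 2 ppm O3 (90.1 to 149.5 RPMMM), whereas miR-34b-3p is lowest after 1 ppm O3.

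In the deposited RPMMM, miR-34a-5p fell with concentration. Its level was 386, 762 and 409 RPMMM in the FA pools, 248, 177 and 261 RPMMM after 1 ppm O3, and 149.5, 90.1 and 138.5 RPMMM after 2 ppm O3. Every pool lay below every pool of the lower concentrations. Means were 519 ± 210 RPMMM (SD, n = 3 pools), 229 ± 45.6 RPMMM and 126 ± 31.6 RPMMM, from about 219 to 589 reads per pool in FA, 98 to 225 after 1 ppm O3 and 26 to 45 after 2 ppm O3. All 27 pairs of pools from different exposures fell with concentration (two-sided exact permutation test, p = 0.00119, the smallest these 9 pools allow, and 0.00704 after adjustment over 461 entries). Of all entries tested, 6.07% fell in every pair and 28.6% passed this adjusted test.

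The log2 fold change of miR-34a-5p was -1.99 after 2 ppm O3 vs FA (SE 0.359, limma adjusted p = 0.00119), a level 3.99 times lower, and -1.17 after subtraction of that median. It was -1.13 after 1 ppm O3 (SE 0.359, limma adjusted p = 0.0636), which was not DE, but DE with a pseudocount of 10 (limma adjusted p = 0.0471) and with values under 40 RPMMM set to 40 (limma adjusted p = 0.0484). Between the concentrations it was -0.87 (limma adjusted p = 0.0752), close to the median of all entries. This value was -0.26 with median-of-ratios scaling (limma adjusted p = 0.605). It was -0.12 when miR-2137 and the 4 hairpins were left out of the total (limma adjusted p = 0.804). The call at 2 ppm O3 held in each of the 21 settings run, main one included, with values between -1.14 and -2.17. The order with concentration did not: no family entry passed the adjusted test with median-of-ratios scaling or when miR-2137 and the 4 hairpins were left out of the total. The other mir-34a entries, 3 isomiRs of the same arm, were under the filter, and no entry was listed for its 3p arm.

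A list of miRNAs from outside the family that are known to be induced by p53 was set beside miR-34a-5p. It held mir-192, mir-194, mir-215, mir-107, mir-145 and mir-143, and all but mir-215 were in the table. Of its 10 entries tested, none was DE after 1 ppm O3, against 13.2% of all entries, and 2 after 2 ppm O3, against 43.6%. After 2 ppm O3, miR-107-3p rose (log2 fold change 2.20, limma adjusted p = 0.0322) and miR-192-5p fell (-1.48, limma adjusted p = 0.0347). For 2 ppm O3 vs 1 ppm O3, 1 entry was DE, against 33.6% of all entries: miR-192-5p, lower (-1.53, limma adjusted p = 0.0386). Whether these counts differ from the shares of all entries was not tested. The median of the list was -0.10 after 1 ppm O3 and -0.40 after 2 ppm O3, against -0.08 and -0.83 for all entries.

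miR-34b-3p, the most abundant entry of the family, was lower after 1 ppm O3 than in either other exposure. It was at 4583, 4566 and 5726 RPMMM in FA, at 2022, 4116 and 2387 RPMMM after 1 ppm O3, and at 6103, 5323 and 5528 RPMMM after 2 ppm O3. All 1 ppm O3 pools lay below all others, and FA and 2 ppm O3 pools overlapped. The log2 fold change was -0.86 after 1 ppm O3 vs FA (SE 0.233, limma adjusted p = 0.0321), a fold change under 2 and so not DE, and -1.17 and DE without 1 ppm O3 pool 2. It was 1.06 for 2 ppm O3 vs 1 ppm O3 (SE 0.233, limma adjusted p = 0.00549), and 1.75 above the median of all entries. The second call depended on single pools: the value was 0.85 without 1 ppm O3 pool 1 and 0.97 without 1 ppm O3 pool 3, both under a fold change of 2.

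Compared with FA, miR-34b-3p after 2 ppm O3 had a log2 fold change of 0.19 (limma adjusted p = 0.476), with a mean of 5651 ± 404 RPMMM against 4958 ± 665 RPMMM (SD, n = 3 pools). This value depended on the scaling. It was 0.89 with median-of-ratios scaling and 1.06, and DE, when miR-2137 and the 4 hairpins were left out of the total. It lay 1.02 above the median of all entries. The other arm, miR-34b-5p, was rare: 57.0, 0 and 140.1 RPMMM in FA, 21.6 RPMMM in 1 pool after 1 ppm O3 and 46.6 RPMMM in 1 pool after 2 ppm O3.

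miR-34c-3p was lower than in FA after both concentrations. It was at 2778, 3696 and 3819 RPMMM in FA, at 1494, 2464 and 1288 RPMMM after 1 ppm O3, and at 2256, 2139 and 2263 RPMMM after 2 ppm O3. All O3 pools lay below all FA pools, and the concentrations overlapped. Below FA in every pool were 4 of 11 family entries after 1 ppm O3, against 18.4% of all entries, and 3 of 11 after 2 ppm O3, against 48.2%. Both counts include miR-449a-3p, which passed the filter only through its FA level. None was above FA in every pool after 1 ppm O3, against 14.8% of all entries.

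After 1 ppm O3, miR-34c-3p had a log2 fold change of -1.02 (SE 0.229, limma adjusted p = 0.0148), just past the fold threshold. It dropped below that threshold, to between -0.96 and -0.82, with each of the 3 other scalings and without FA pool 2, FA pool 3, 1 ppm O3 pool 1 or 1 ppm O3 pool 3. After 2 ppm O3 it was -0.61 (SE 0.229, limma adjusted p = 0.0461), under a fold change of 2, and its sign turned with the scaling, to 0.084 with median-of-ratios and 0.25 without miR-2137 and the 4 hairpins. Between the concentrations it was 0.40 (limma adjusted p = 0.177), not DE, but DE and higher under these same scalings (1.01 and 1.15, limma adjusted p = 0.0115 and 0.00487).

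miR-34c-5p, the most abundant 5p entry of the family, overlapped between all exposures. It was at 1815, 2684 and 4838 RPMMM in FA, at 1796, 2302 and 1316 RPMMM after 1 ppm O3, and at 3579, 2700 and 2117 RPMMM after 2 ppm O3. The log2 fold change was -0.70 after 1 ppm O3 (limma adjusted p = 0.242) and -0.07 after 2 ppm O3 (limma adjusted p = 0.878), the latter with a 95% interval from -0.86 to 0.73. That interval does not leave out a fall or a rise by over 1.5 times, and the sign of the 2 ppm O3 value turned under all 3 other scalings, to between 0.24 and 0.79. Between the concentrations the value was 0.64 (limma adjusted p = 0.168), not DE. It was DE and higher with median-of-ratios scaling (1.25, limma adjusted p = 0.0317) and when miR-2137 and the 4 hairpins were left out of the total (1.38, limma adjusted p = 0.0171).

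The ratio of 2 members within a pool does not depend on the scaling. miR-34b-3p over miR-34c-3p was 1.65, 1.24 and 1.50 in FA, 1.35, 1.67 and 1.85 after 1 ppm O3, and 2.70, 2.49 and 2.44 after 2 ppm O3. All 2 ppm O3 pools lay above all others in this ratio, by 1.08 on average vs FA (two-sided exact permutation test, p = 0.1, the smallest that 3 pools against 3 allow). miR-34a-5p over miR-34c-5p was 0.213, 0.284 and 0.0845 in FA, 0.138, 0.0767 and 0.199 after 1 ppm O3, and 0.0418, 0.0334 and 0.0654 after 2 ppm O3. Here too the 2 ppm O3 pools lay apart, below all others (two-sided exact permutation test, p = 0.1 vs FA). miR-34c-5p over miR-34c-3p, the arms of 1 hairpin, averaged 0.882, 1.05 and 1.26 and overlapped between exposures. Over the 12 comparisons of 4 such ratios, the lowest adjusted p was 0.2.

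The miR-449 entries were scarcer, and the arms of mir-449a differed. miR-449a-3p was at 310, 350 and 241 RPMMM in FA, at 44.9, 0 and 41.8 RPMMM after 1 ppm O3, and at 0, 0 and 71.0 RPMMM after 2 ppm O3. Every O3 pool lay below every FA pool. The counts behind these values were about 239, 271 and 129 reads in FA, 27 and 36 reads in the 1 ppm O3 pools that listed it, and 20 reads in the 2 ppm O3 pool that listed it. The FA level is well above the lowest level listed in the 2 ppm O3 pools.

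miR-449a-3p passed the filter, set on the mean over all pools, only through FA. Its means were 300 RPMMM in FA, 28.9 RPMMM after 1 ppm O3 and 23.7 RPMMM after 2 ppm O3. Selected in this way, it could hardly show a rise after O3, and its calls carry that limit. After 2 ppm O3, miR-449a-3p had a log2 fold change of -6.16 (SE 1.98, limma adjusted p = 0.0251), with a 95% interval from -10.6 to -1.71. After 1 ppm O3 it was -4.57 (SE 1.98, limma adjusted p = 0.177), which was not DE. That value was DE with a pseudocount of 10 (-3.33, limma adjusted p = 0.0292) and with values under 40 RPMMM set to 40 (-2.79, limma adjusted p = 0.000118). The size of both rests on the value of 1 added before the log, and with the same floor of 40 RPMMM the 2 ppm O3 value was -2.59. The call at 2 ppm O3 was lost without FA pool 1, 2 or 3 and without 2 ppm O3 pool 1 or 2 (limma adjusted p between 0.0656 and 0.0804), and with 2 of the other scalings (limma adjusted p = 0.0515 and 0.0666).

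miR-449a-5p, which carries the family seed, was at 115, 167 and 176 RPMMM in FA, at 88.2, 117 and 124 RPMMM after 1 ppm O3, and at 66.5, 128 and 81.7 RPMMM after 2 ppm O3. The exposures overlapped, and the log2 fold change was -0.46 after 1 ppm O3 (limma adjusted p = 0.593) and -0.75 after 2 ppm O3 (limma adjusted p = 0.151), the latter 0.07 above the median of all entries. The sign of the 2 ppm O3 value turned, to 0.10, when miR-2137 and the 4 hairpins were left out of the total. The ratio of miR-449a-3p over miR-449a-5p was 2.69, 2.10 and 1.37 in FA, 0.509, 0 and 0.336 after 1 ppm O3, and 0, 0 and 0.870 after 2 ppm O3. The 3p arm was thus the more abundant arm in each FA pool and the less abundant arm in each O3 pool (two-sided exact permutation test, p = 0.1 for each concentration vs FA). This ratio carries the limit of miR-449a-3p, which passed the filter only through FA. A ratio that is higher in FA was favoured by that selection, so the test cannot decide whether the balance of the arms changed. miR-449c-5p was listed at 24.3 to 50.6 RPMMM in the FA pools, in 2 of 3 pools after 1 ppm O3 and in 1 of 3 after 2 ppm O3, at 39.1 RPMMM, near the lowest level listed there.

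**Figure D3:**
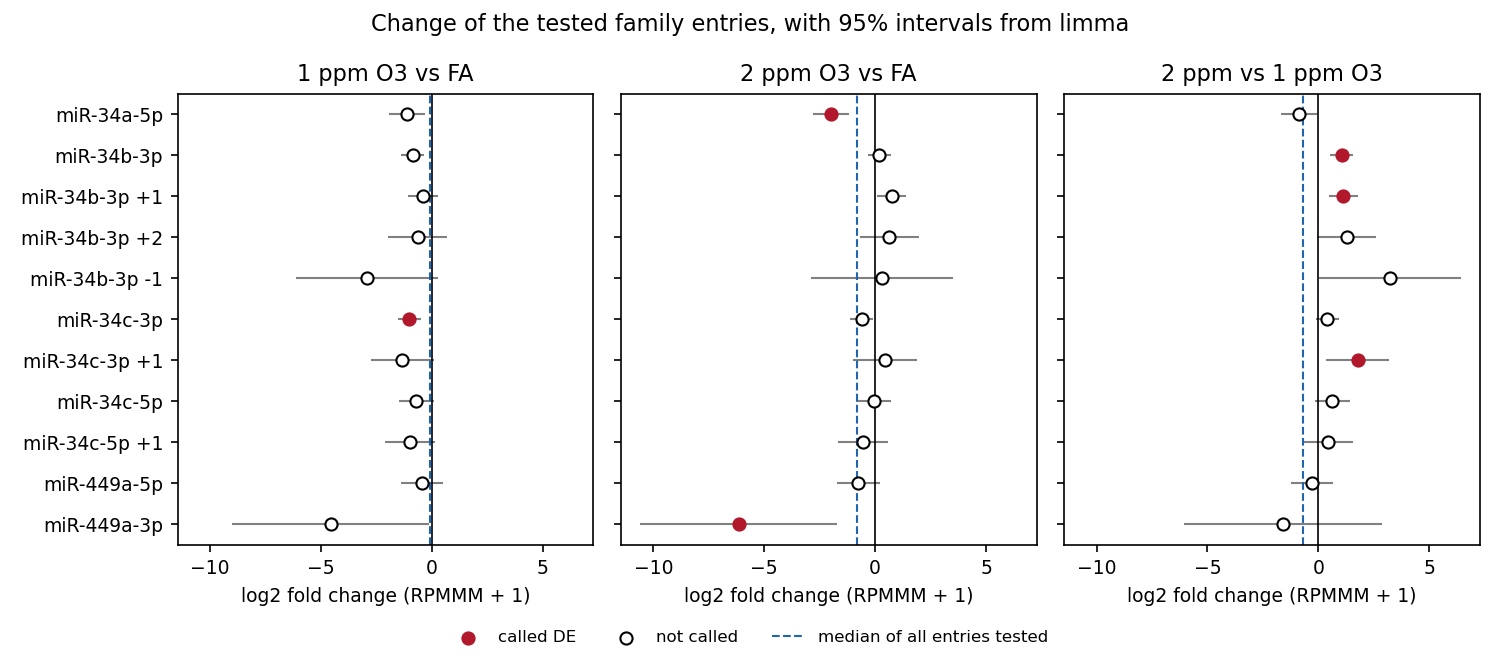
Log2 fold change of the 11 tested entries (points, filled where DE, with 95% intervals from limma) in each of the 3 comparisons, with the median of all 461 entries as a dashed line. The 8 tested mir-34b and mir-34c entries lie below 0 after 1 ppm O3 vs FA (-2.92 to -0.40) and above 0 for 2 ppm O3 vs 1 ppm O3 (0.40 to 3.22).

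IsomiRs with a shifted 5′ end have another seed and so may have other targets. The suffix +1 is read here as a 5′ end 1 base downstream of the mature one and -1 as 1 base upstream; the sources used here do not define it. Read this way, the +1 isomiRs of miR-34b-3p and miR-34c-3p share the seed UCACUAA, which 0 of the 1738 mature miRNAs carry. They are shown because 2 of the 3 entries called DE between the concentrations are these isomiRs.
miR-34b-3p +1: aUCACUAAcuccacugccauc
miR-34c-3p +1: aUCACUAAccacacagccagg

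miR-34b-3p +1 was highest after 2 ppm O3. It was at 608, 424 and 795 RPMMM in FA, at 323, 606 and 460 RPMMM after 1 ppm O3, and at 1027, 819 and 1134 RPMMM after 2 ppm O3. All 2 ppm O3 pools lay above all others, the only one of the 11 family entries that was above FA in every pool, against 18.2% of all entries. The log2 fold change was 1.13 for 2 ppm O3 vs 1 ppm O3 (SE 0.295, limma adjusted p = 0.0134), and 0.90, not DE, without 1 ppm O3 pool 1. It was 0.74 for 2 ppm O3 vs FA (SE 0.295, limma adjusted p = 0.0594), and DE at 1.05, 1.44 and 1.60 under the 3 other scalings.

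miR-34c-3p +1 was at 252, 154 and 208 RPMMM in FA, at 74.9, 223 and 29.0 RPMMM after 1 ppm O3, and at 287, 232 and 305 RPMMM after 2 ppm O3. All 2 ppm O3 pools lay above the 1 ppm O3 pools and overlapped with FA. Between the concentrations its log2 fold change was 1.78 (SE 0.636, limma adjusted p = 0.0471), and it was not DE in 12 of 19 other settings, among them each of the 9 pools left out in turn except 1 ppm O3 pool 2. Without that pool it was also DE and lower after 1 ppm O3 vs FA (-2.08, limma adjusted p = 0.0226), where it was -1.33 with all pools (limma adjusted p = 0.217). In all, 4 of 11 family entries were higher in every 2 ppm O3 pool than in every 1 ppm O3 pool, against 19.3% of all entries, and 1, miR-34a-5p, was lower, against 37.5%.

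With the deposited scaling and all pools, the other tested isomiRs were not DE in any comparison. miR-34b-3p +2 was at 71.0 to 136 RPMMM in FA, 40.3 to 150 RPMMM after 1 ppm O3 and 130 to 205 RPMMM after 2 ppm O3. miR-34b-3p -1 was at 63.5 to 162 RPMMM, 0 to 106 RPMMM and 111 to 142 RPMMM, with every 2 ppm O3 pool above every 1 ppm O3 pool. miR-34c-5p +1 was at 97.2 to 238 RPMMM, 60.7 to 128 RPMMM and 86.4 to 146 RPMMM. For 2 ppm O3 vs 1 ppm O3, miR-34b-3p +2 had a log2 fold change of 1.29 (limma adjusted p = 0.101). It was DE and higher with median-of-ratios scaling (1.90), when miR-2137 and the 4 hairpins were left out of the total (2.03), and without 1 ppm O3 pool 2 (1.90). Without that pool miR-34b-3p -1 was DE and higher too (4.74, limma adjusted p = 0.0170, against 3.22 and 0.0920 with all pools).

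As shares of their own arm, which no scaling alters, the +1 ends of the 3p arms were larger after 2 ppm O3 than in FA. The p-values of these shares were not adjusted for the number of tests. For miR-34c-3p the share was 8.13%, 3.93% and 5.05% in FA, 4.77%, 8.08% and 2.12% after 1 ppm O3, and 11.3%, 9.77% and 11.7% after 2 ppm O3. All 2 ppm O3 pools lay above all others, by 5.20 percentage points vs FA (two-sided exact permutation test, p = 0.1, the smallest possible). For miR-34b-3p it was 11.2%, 7.99% and 11.9% in FA, 13.5%, 12.1% and 15.6% after 1 ppm O3, and 13.9%, 12.6% and 16.3% after 2 ppm O3, so that every O3 pool lay above every FA pool (two-sided exact permutation test, p = 0.1 for each concentration). The concentrations overlapped in this share. For the 5p arm of mir-34c it was 4.84%, 6.25% and 4.56% in FA, 3.12%, 4.82% and 4.67% after 1 ppm O3, and 3.85%, 3.64% and 3.69% after 2 ppm O3. All 2 ppm O3 pools lay below all FA pools, and the 1 ppm O3 pools overlapped with both (two-sided exact permutation test of 2 ppm O3 vs FA, p = 0.1).

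**Figure D4:**
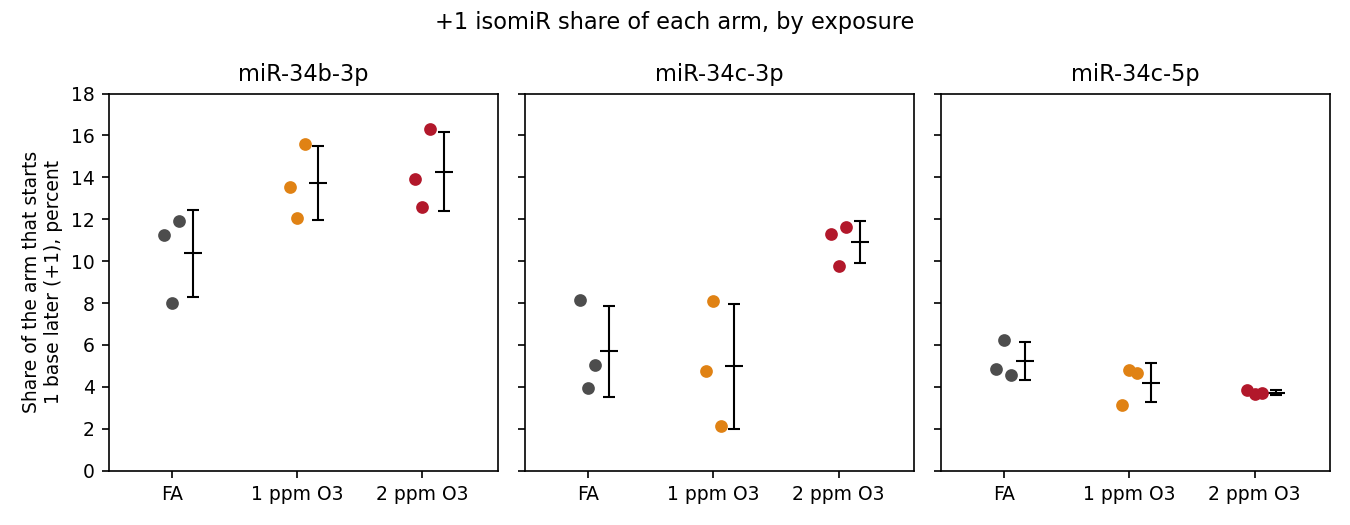
Share of the RPMMM of each of 3 arms that is the +1 isomiR (percent) in each pool (points), with the mean and SD of the 3 pools per exposure (black bars). The +1 share of miR-34c-3p is 9.77% to 11.7% after 2 ppm O3 and at most 8.13% in the other pools.

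Over the whole family, isomiRs made up 9.25% to 11.8% of RPMMM in FA, 9.70% to 15.0% after 1 ppm O3 and 12.7% to 16.3% after 2 ppm O3. The difference of 3.65 percentage points between 2 ppm O3 and FA had p = 0.1 (two-sided exact permutation test). Over the whole table, isomiRs went from 6.82% to 7.25% in FA, through 9.08% to 12.3% after 1 ppm O3, to 30.6% to 34.3% after 2 ppm O3. Whether this wider shift has a part in the shares of the family was not tested.

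Lists of miRNAs known from other cell types were set beside the mir-34b, mir-34c and mir-449 hairpins. The list of other epithelium (mir-200a, mir-200b, mir-200c, mir-141, mir-429, mir-203 and mir-205) summed to 67692 to 73307 RPMMM in FA, 54023 to 58979 RPMMM after 1 ppm O3 and 27749 to 32117 RPMMM after 2 ppm O3. Of its 23 entries tested, 2 were DE after 1 ppm O3 and 11 after 2 ppm O3, all lower, against 2.82% and 29.3% of all entries DE and lower and 13.2% and 43.6% DE in either direction. Its medians were -0.40 and -1.29, against -0.08 and -0.83. The list of mir-34b, mir-34c and mir-449 hairpins, without mir-34a, had 10 entries tested, of which 1 was DE and lower after each concentration vs FA, against the same shares, with medians of -0.93 and 0.06. As a percentage of the other epithelial list, which no scaling alters, it was 16.0%, 18.8% and 22.6% in FA, 11.2%, 19.8% and 10.1% after 1 ppm O3, and 49.7%, 41.6% and 37.7% after 2 ppm O3. miR-34a-5p as a percentage of the same list was 0.560%, 1.13% and 0.558%, then 0.458%, 0.327% and 0.443%, then 0.539%, 0.316% and 0.431%.

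All 2 ppm O3 pools thus stood above all others in the ratio of the mir-34b, mir-34c and mir-449 list to the other epithelial list, and in all O3 pools miR-34a-5p was below the FA pools in its ratio. In the lists for other cells, the share of all entries DE after 2 ppm O3 to set beside each count is 14.3% higher and 29.3% lower. The endothelial hairpin mir-126 summed to 112 to 314 RPMMM in FA, 445 to 938 RPMMM after 1 ppm O3 and 764 to 912 RPMMM after 2 ppm O3, and 3 of its 3 entries tested were DE and higher after 2 ppm O3. The leukocyte list summed to 1431 to 2129, 1848 to 2362 and 1285 to 1463 RPMMM, with 1 of 5 entries DE, lower, after 2 ppm O3. The erythroid list summed to 884 to 1822, 150 to 343 and 158 to 948 RPMMM, with neither of its 2 entries tested DE after 2 ppm O3. The muscle list summed to 235 to 6029, 146 to 217 and 0 to 179 RPMMM, with its highest value in FA pool 3, and 4 of 4 entries were DE and lower after 2 ppm O3. After 1 ppm O3 vs FA, 10.4% of all entries were DE and higher and 2.82% lower. There, 1 of 3 mir-126 entries was DE and higher, and 1 of 2 erythroid entries was DE and lower. No leukocyte or muscle entry was DE in that comparison. The part of these other cells in the family's values was not tested.

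Within the family, levels of the mir-34b and mir-34c arms went together over the 9 pools, with Pearson r on log2 values of 0.72 for miR-34b-3p with miR-34c-3p, 0.73 for miR-34b-3p with miR-34c-5p and 0.72 for the arms of mir-34c. miR-34a-5p had r = 0.80 with miR-449a-3p, 0.59 with miR-449a-5p, 0.04 with miR-34c-5p and -0.16 with miR-34b-3p. These are descriptions over pools that share exposure, depth and total. miR-449a-3p passed the filter only through FA and was listed at 0 in some O3 pools. Its r therefore rests partly on that selection and on the value of 1 added before the log. Among 230 mature miRNAs of other hairpins above 50 RPMMM, those most like miR-34c-5p were miR-708-3p (r = 0.71), miR-378-3p (0.65), miR-328-3p (0.65), miR-125a-3p (0.64) and miR-330-5p (0.63). Those most like miR-449a-5p were miR-1a-2-3p and miR-1a-1-3p (0.90 each, genomic copies that share reads), miR-101b-3p (0.87), miR-28-5p (0.87) and miR-101a-3p (0.83).

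**Figure D5:**
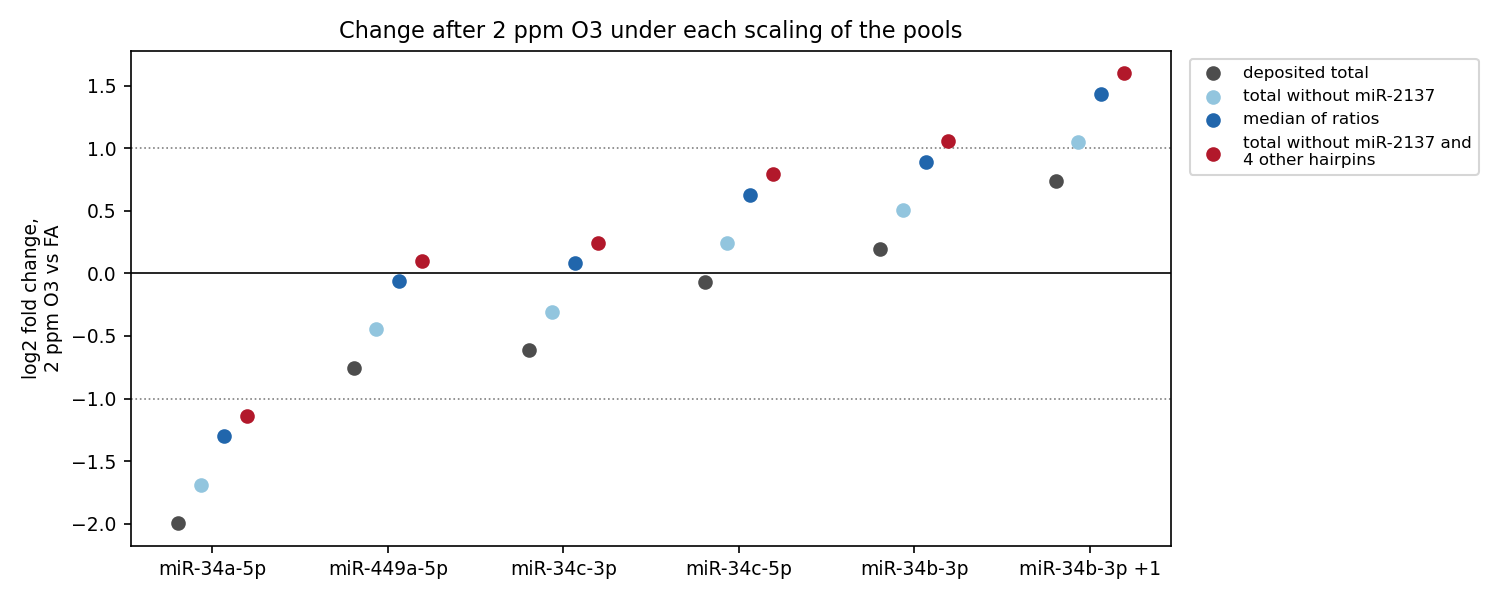
Log2 fold change after 2 ppm O3 vs FA of 6 entries (points) under the deposited total and 3 other scalings of the pools; dotted lines mark a fold change of 2. miR-34a-5p stays below -1 under every scaling (-1.99 to -1.14), whereas miR-34c-3p and miR-34c-5p move from below to above 0.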

How the data were processed

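Small RNA was sequenced in EVs of pooled BALF. Per the labels and the study's methods, the authors aligned reads to mm9, ran miRquant 2.0 and deposited RPMMM, an RPM of miRNA-mapped reads, for each of the 9 pools, with a common column total. Depth was estimated from the steps between low values, with the lowest value in each pool assumed to be about 10 reads. Of the low values, 70.6% to 86.5% lay on whole reads, too few for a count test. Pearson r between pools of 1 exposure was 0.755 to 0.893 across entries, and no pools were identical. Pools were numbered in accession order, and p-values measure the spread between pools. The paper's supplement lists 1 set of chamber conditions for each O3 concentration. If all pools of a concentration came from 1 chamber run, run and concentration cannot be told apart.

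Entries were tested where their mean over all 9 pools exceeded 50 RPMMM (461 of 1308), which an entry could reach through a single exposure. Their log2(RPMMM + 1) was fitted with limma 3.58.1 (R 4.3.3), with 1 mean per exposure over all 9 pools, a variance trend and Benjamini-Hochberg adjustment over all 461 entries. DE required an adjusted p under 0.05 with at least a 2-fold change. For low entries listed at 0 in some pools, the size of a change depends on the pseudocount. That of miR-449a-3p after 2 ppm O3 vs FA was -6.16 with 1, -6.83 with 0.5 and -3.93 with 10. The fit was checked on simulated data. Exact permutation tests served for single values. Named were all mature entries, all DE entries and the 5 mature miRNAs most correlated with miR-34c-5p and with miR-449a-5p. Members and lists were chosen with earlier results of these data known. Alternatives covered pseudocount, filter, scaling, isomiRs and copies, model, a floor and pools left out. Other steps ran in Python 3.11.15 (pandas 2.3.3, scipy 1.17.1, numpy 2.4.6, matplotlib 3.10.9).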

Additional observations from a re-analysis of the deposited data

How the results depend on the processing

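No paired analysis was possible because the labels give no replicate numbers that pools of different exposures share. Over 20 alternatives, 583 of 644 values of single entries kept their direction and their side of the thresholds, 29 no longer passed, 18 newly passed and 14 reversed. The cause of these changes was not tested. Several alternatives cannot alter a log2 fold change, only its adjusted p, so the direction was fixed there. Among them are the filters, the model choices and the leaving out of a pool of the exposure not compared. The number of values that kept their direction includes these.

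The number of DE family entries after 1 ppm O3 vs FA, 1, was 3 with a pseudocount of 10, 3 with values under 40 RPMMM set to 40, and 0 with median-of-ratios scaling and when miR-2137 was left out of the total, alone or with the 4 hairpins mir-5115, mir-5109, mir-5105 and mir-5102. With a pool left out it was 0 to 3: 0 without FA pool 2 or 3 or without 1 ppm O3 pool 1 or 3, and 3 without 1 ppm O3 pool 2. After 2 ppm O3 vs FA, 2 became 4 with a filter at 10 RPMMM, and 1 to 2 with a pool left out, 1 without any FA pool or without 2 ppm O3 pool 1 or 2. It was 3 when miR-2137 was left out, alone or with the 4 hairpins. Between the concentrations, 3 became 6 with median-of-ratios scaling, 6 without miR-2137 and the 4 hairpins, 2 in several other settings, 1 with each mature miRNA once, and 0 to 5 with a pool left out: 0 without 1 ppm O3 pool 1, 1 without 1 ppm O3 pool 3 and 5 without 1 ppm O3 pool 2.

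The log2 ratio of the summed family, -0.14 for 2 ppm O3 vs FA and 0.70 for 2 ppm O3 vs 1 ppm O3, was 0.57 and 1.32 with median-of-ratios scaling and 0.73 and 1.45 without miR-2137 and the 4 hairpins. With a pool left out, these ratios were -0.27 to 0.03 and 0.57 to 1.02, and that for 1 ppm O3 vs FA was -1.16 to -0.68. The 1 entry ordered with concentration became 0 with median-of-ratios scaling and 0 without miR-2137 and the 4 hairpins, and 1 to 2 with a pool left out, 2 without 2 ppm O3 pool 3. The share of shifted ends differed by 0.944 to 3.60, 2.44 to 4.43 and 0.0434 to 2.70 percentage points.

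The log2 fold changes that reversed for 2 ppm O3 vs FA were those of miR-34c-3p (0.084 with median-of-ratios scaling, 0.25 without miR-2137 and the 4 hairpins), miR-34c-5p (0.63, 0.79, 0.24 without miR-2137 alone, 0.31 without FA pool 3, 0.12 without 2 ppm O3 pool 3, with a range of -0.40 to 0.31 over pools left out), miR-34c-5p +1 (0.13, 0.29), miR-449a-5p (0.10 without miR-2137 and the 4 hairpins) and miR-34b-3p -1 (-0.00096 without FA pool 3, with a range up to 0.67). For 2 ppm O3 vs 1 ppm O3 they were those of miR-449a-5p (0.32, 0.45) and miR-449a-3p (0.20 with values under 40 RPMMM set to 40). Depth limited entries under about 37.3 RPMMM after 2 ppm O3.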
